A study of Mus musculus with 19 samples.

Results

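The livers of mice given the lowest of 3 doses of dibenz[a,h]anthracene were compared with the livers of mice given the vehicle alone, across the mouse microRNAs (miRNAs) of a one-colour array. Arrays were taken by their titles, 5 at 6.25 mg/kg/day (called low dose) and 5 at 0 mg/kg/day (called control), so that 10 of the 19 arrays of the series entered the comparison. The other 9 arrays, 4 at 12.5 mg/kg/day (middle dose) and 5 at 25 mg/kg/day (high dose), shared in the estimate of the spread and are used beside the low dose near the end. All animals were male MutaMouse mice of 10 weeks, a transgenic line that carries a bacterial reporter gene for mutations in every tissue. They received the compound dissolved in olive oil, or the oil only, by gavage once a day for 28 days, and the liver was removed 3 days after dosing ended. Each array was hybridized with 100 ng of total liver RNA of 1 mouse. The array design carries 696 mouse miRNAs, and the 208 that at least 4 of the 19 arrays detected were tested. The series asked whether hepatic miRNAs respond to this exposure.

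Dibenz[a,h]anthracene is a polycyclic aromatic hydrocarbon that binds the aryl hydrocarbon receptor, induces the enzymes that oxidize it, and is converted by them into products that bind DNA. Damaged DNA activates the transcription factor p53, and the gene of miR-34a is one of its direct targets. A miRNA is a short RNA that pairs with messenger RNAs mainly through its seed, bases 2 to 8, and lowers their translation or stability. Whole liver contains hepatocytes, in which miR-122 is abundant, together with endothelial cells, macrophages and other leukocytes, stellate cells and bile duct cells, each with miRNAs of its own.

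The mature sequences below are those of the called miRNAs and of their closest relatives by seed, since the results turn on which members of a seed family differed. They are written 5′ to 3′ with the seed in capitals. RefSeq (build GRCm38.p6) was matched for 128 of the 208 tested miRNAs, 41 by an identical name. The other 87, most of those shown here among them, have no RefSeq arm name on the array. They were assigned an arm from general knowledge, the guide strand for plain names and the other arm for names with a star. The array files do not state this arm. Of the 9 called miRNAs 7 have a sequence, and miR-126-3p and miR-23b are named only. The relatives share the seed exactly and differ in the bases after it or in the first base.
miR-34a: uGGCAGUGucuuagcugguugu
miR-139-5p: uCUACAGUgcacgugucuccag
miR-223: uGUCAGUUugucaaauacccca
miR-10a: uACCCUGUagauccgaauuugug
miR-10b: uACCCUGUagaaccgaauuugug
miR-20a: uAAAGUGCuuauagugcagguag
miR-20b: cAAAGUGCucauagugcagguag
miR-93: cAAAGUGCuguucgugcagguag
miR-106b: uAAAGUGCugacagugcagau
miR-322: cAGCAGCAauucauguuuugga
miR-15b: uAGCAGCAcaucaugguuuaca
miR-15a: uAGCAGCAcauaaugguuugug
miR-16: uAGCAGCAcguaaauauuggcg

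On that build the mature miR-34a lies at chr4:150068473-150068494 on the plus strand and miR-139-5p at chr7:101475382-101475403 on the plus strand. The mature miR-10a is at chr11:96317186-96317208 on the plus strand, and miR-20a at chr14:115044183-115044205 on the plus strand. Another 3 called miRNAs are on the X chromosome, miR-20b at chrX:52742159-52742181 and miR-322 at chrX:53054306-53054327, both on the minus strand, and miR-223 at chrX:96242884-96242905 on the plus strand. These positions are of the mature RNA within its hairpin, and whether the hairpin is in an intron or exon of a host gene was not analysed here.

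Each level is given as log2 of the signal divided by the array's 75th percentile, and a difference is the low dose minus the control from limma with the slide as a block. Values under a floor of -4.79 were set to it and cannot be ranked among themselves. Of the 208 tested miRNAs, 125 were never at the floor on the 10 arrays, 47 were at it on some of them and 36 on all 10. The 3 slides were unevenly filled. Slide 1 held control replicate 1 and low dose replicate 3, slide 2 held control replicate 10 and low dose replicates 11 and 12, and slide 3 held control replicates 17, 19 and 22 and low dose replicates 18 and 24. Between replicates of a group r lay between 0.963 and 0.997, taken over miRNAs, which are not independent replicates. Both slide 1 arrays were dim, with a 75th percentile of 219 intensity units against 223 to 491 on the other 8.

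Whole-array measures of the 2 groups overlapped. Controls had 200.6 ± 11.1 miRNAs detected per array and low dose arrays had 194.6 ± 15.3 (SD, n = 5 each) (exact permutation test, two-sided, p = 0.508). The 75th percentile of signal was 357 ± 111 in controls and 301 ± 74.6 at the low dose (SD, n = 5 each; exact permutation p = 0.357). The labelling spike-in RNA, added before labelling, was 0.13 lower at the low dose on the log2 scale (exact permutation p = 0.294; 0.0333 when arrays were rearranged only within slides, adjusted over 4 measures 0.133). The spike-in added at hybridization differed by 0.03 (exact permutation p = 0.730).

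At the low dose 9 of the 208 tested miRNAs were higher than in controls at an adjusted p under 0.05, which is 4.33%, and 0 were lower. They were miR-34a, which p53 induces, miR-139-5p, miR-10a, miR-126-3p and miR-322, which are listed as endothelial, the miR-17 cluster members miR-20a and miR-20b, miR-223 of myeloid cells, and miR-23b. Before adjustment 28 miRNAs were higher (13.5%) and 0 were lower at p under 0.05 in limma. This split depended on the scaling: it was 6 higher and 11 lower after quantile normalization, 9 and 9 after scaling by total gene signal, and 3 and 19 after scaling by the median of the miRNAs detected on all arrays. Among the 125 miRNAs never at the floor, 104 had a higher and 21 a lower value at the low dose, with a median difference of 0.13. Over all tested miRNAs the median difference was 0.07. Single arrays decided much of the count. Without control replicate 10, 0 of the 9 passed, and without low dose replicate 3 only miR-139-5p and miR-34a did, at adjusted p of 0.0315 and 0.0308. Over the 19 fits with 1 array left out, all 9 kept a positive difference in every fit. miR-34a and miR-139-5p were called in 18 of these fits, miR-126-3p and miR-20b in 13, miR-10a in 12, miR-223 in 10, miR-20a in 9, and miR-322 and miR-23b in 8. Over the 19 other settings of signal, scaling, filter and model, miR-126-3p and miR-139-5p were called in 8, miR-20b in 7, miR-34a and miR-223 in 6, miR-10a, miR-20a and miR-322 in 5, and miR-23b in 3.

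**Figure D1:**
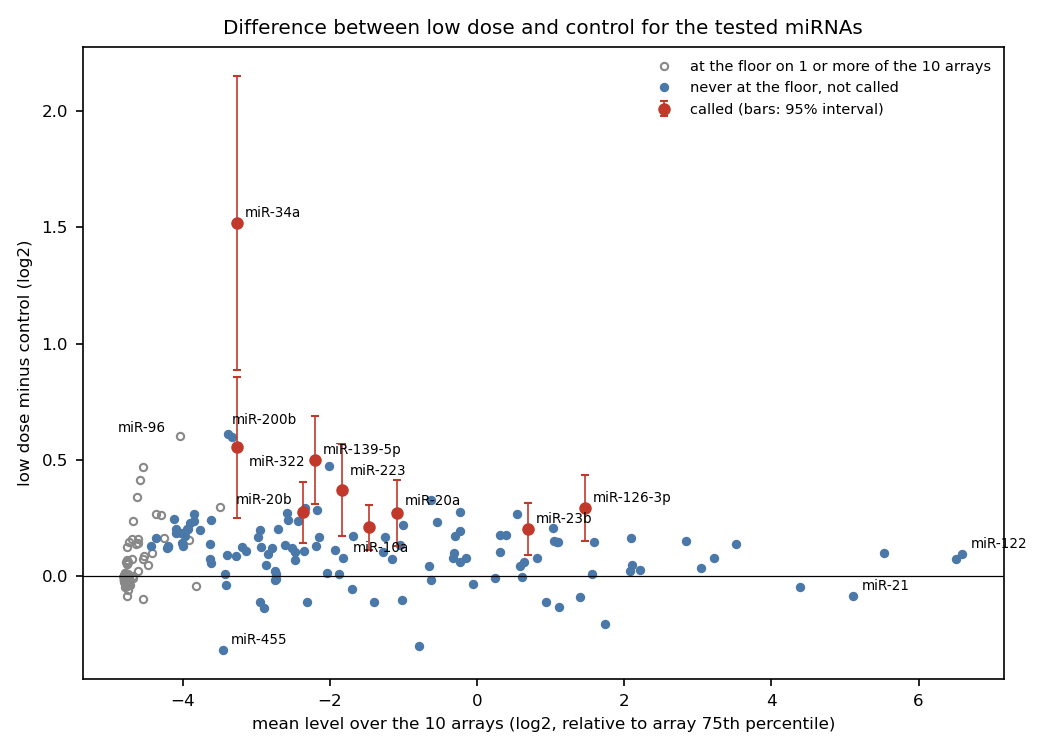
Difference between low dose and control (log2) for each of the 208 tested miRNAs against its mean level over the 10 arrays (log2 of signal over the array's 75th percentile). Red points are the 9 called miRNAs with 95% intervals, and miR-34a at 1.52 stands above the rest, which lie between -0.32 and 0.61.

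The differences were small apart from miR-34a. Only 4 tested miRNAs differed by more than 1.5-fold, namely miR-34a, miR-96, miR-200a and miR-200b, and of these miR-34a alone was called. The precision was enough to bound many of the others. Of the 125 miRNAs never at the floor, 101 had a 95% interval that lay wholly within a 1.5-fold change either way, 47 within 1.25-fold and 121 within 2-fold. The median SD between arrays of these miRNAs was 0.20 in controls and 0.15 at the low dose, and 41 of the 125 had the larger SD at the low dose. Every called miRNA was detected on all 10 arrays.

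miR-34a, whose family represses cell cycle genes after DNA damage, had the largest difference. Its level was -3.75, -4.31, -3.97, -4.21 and -3.96 in control replicates 1, 10, 17, 19 and 22. At the low dose it was -0.71 in replicate 3 and -2.89, -2.86, -2.99 and -3.04 in replicates 11, 12, 18 and 24. All low dose arrays lay above all controls, 4 of them between -3.04 and -2.86 and replicate 3 far above those. The fitted difference was 1.52 ± 0.29 (SE), a 2.87-fold rise with a 95% interval of 1.85 to 4.44 and an adjusted p of 0.0165 in limma. Without replicate 3 it was 1.21 with an adjusted p of 0.0308, where leaving out other single arrays gave adjusted p of 0.0120 to 0.0704. The plain difference of means was 1.54 (exact permutation test, two-sided, p = 0.00794, the smallest that 252 arrangements can give), and within slides it was 1.57 (exact p = 0.0167, the smallest of 60).
Within slides the miR-34a difference was 3.04 on slide 1, 1.44 on slide 2 and 1.03 on slide 3. A second probe for miR-34a gave 1.42, so both probes of this miRNA were higher at the low dose. The difference was positive in all 19 other settings of signal, scaling, filter and model, and it was called in 6 of them, with adjusted p between 0.00789 and 1. Scalings that lost the call left differences of 1.32 to 1.48, as with the 75th percentile of all probes (1.44, adjusted p = 0.0831) and total gene signal (1.48, adjusted p = 0.0557). The call was lost at a smaller difference with normexp background correction (0.78, adjusted p = 0.105) and in the deposited value table (0.65, adjusted p = 0.152). It was also lost with no slide block (adjusted p = 0.0688), with no filter (0.0723), with only the 10 arrays of the 2 groups (0.0504), on slide 3 alone (0.114) and on slides 1 and 2 alone (0.261). Raising the floor 4 times put all controls and all low dose arrays but replicate 3 at the floor and left 0.40.

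**Figure D2:**
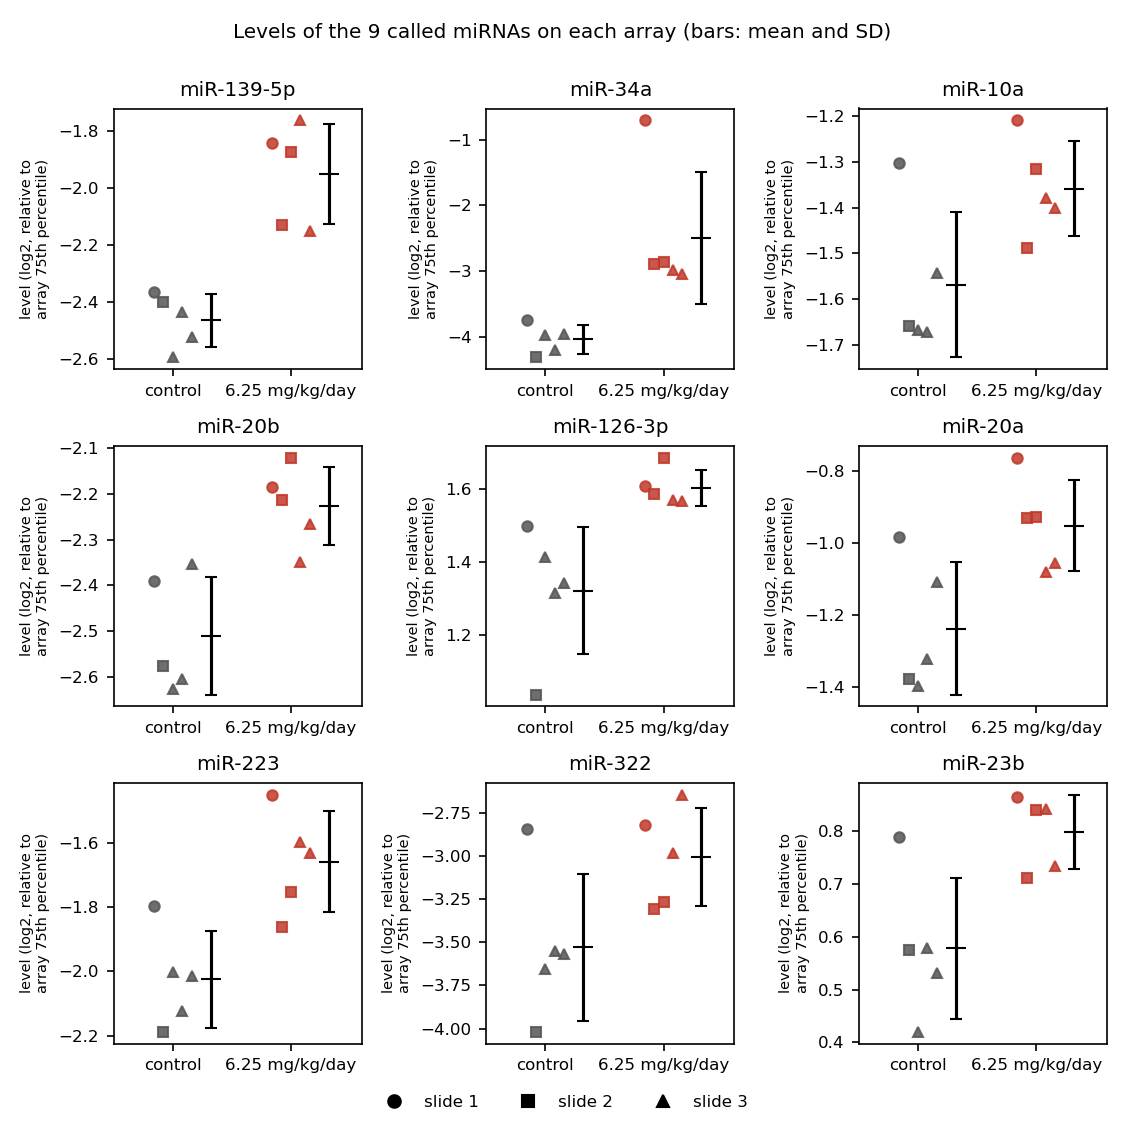
Level of each called miRNA on each of the 10 arrays (log2 of signal over the array's 75th percentile), with controls in grey, low dose arrays in red, the shape of the point giving the slide, and bars for the mean and SD of each group. The groups do not overlap for miR-34a, miR-139-5p, miR-20b and miR-126-3p, and low dose replicate 3 lies far above the other 4 for miR-34a.

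For 7 of the 208 tested miRNAs, which is 3.37%, all low dose arrays lay above all controls, and for 0 all lay below. By the size of the gap they were miR-34a, miR-139-5p, miR-126-3p, miR-92a, miR-20b, miR-26b and let-7e. Of these, miR-92a with a gap of 0.041, miR-26b with 0.0027 and let-7e with 0.0003 were not called. Their adjusted p in limma was 0.0517, 0.177 and 0.295.

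miR-139-5p, listed here as an endothelial miRNA and known to be reduced in liver tumours, had the smallest p. Its level was -2.37, -2.40, -2.60, -2.44 and -2.53 in control replicates 1, 10, 17, 19 and 22. It was -1.84, -2.13, -1.87, -1.76 and -2.15 in low dose replicates 3, 11, 12, 18 and 24. The lowest low dose array was 0.22 above the highest control. The difference was 0.50 ± 0.09 (SE), 1.41-fold with an interval of 1.24 to 1.61 and an adjusted p of 0.0138. It was 0.52, 0.40 and 0.56 on slides 1, 2 and 3. The other arm of the same hairpin, miR-139-3p, was at the floor on all 10 arrays and gives no second reading. Of the other probes for miR-139-5p, 1 gave 0.48 and 1 gave 0, and the mean of its probes differed by 0.32.

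miR-126-3p lies in an intron of Egfl7 and marks endothelial cells. Its level was 1.50, 1.04, 1.41, 1.32 and 1.34 in control replicates 1, 10, 17, 19 and 22, and 1.61, 1.59, 1.69, 1.57 and 1.57 in low dose replicates 3, 11, 12, 18 and 24. The low dose arrays were close together, and control replicate 10 was well below the other controls. The difference was 0.29 ± 0.07 (SE), 1.22-fold, with an adjusted p of 0.0268, and 0.20 without control replicate 10, the lowest of the values with 1 array left out. On slide 2, which holds that control, it was 0.60, against 0.11 and 0.21 on slides 1 and 3. The other arm, miR-126-5p, was near the floor and differed by 0.05 (adjusted p = 0.463).

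miR-10a, from the Hoxb cluster of developmental genes, was at -1.30, -1.66, -1.67, -1.67 and -1.54 in control replicates 1, 10, 17, 19 and 22. The low dose replicates 3, 11, 12, 18 and 24 were at -1.21, -1.49, -1.32, -1.38 and -1.40. Control replicate 1 was above 4 of the low dose arrays, and its partner on slide 1 was the highest of the 10. The difference was 0.21 ± 0.05 (SE), 1.16-fold, adjusted p = 0.0259. miR-10b, which differs from miR-10a at 1 of 23 positions counted from the 5′ end, was at or near the floor on all 10 arrays and differed by -0.03. Whether the probes of so similar a pair read each other's RNA was not tested.

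miR-322, the mouse counterpart of human miR-424, is made in endothelial and other dividing cells and shares its seed with miR-15 and miR-16, which restrain the cell cycle. Its level was -2.85, -4.02, -3.65, -3.55 and -3.57 in control replicates 1, 10, 17, 19 and 22, and -2.82, -3.31, -3.27, -2.98 and -2.65 in low dose replicates 3, 11, 12, 18 and 24. On slide 1 the control and the low dose array were nearly equal, with a difference of 0.03, while slides 2 and 3 had 0.73 and 0.78. The fitted difference was 0.55 ± 0.14 (SE), 1.47-fold with an interval of 1.19 to 1.81 and an adjusted p of 0.0402. Over the 19 other settings of signal, scaling, filter and model it ran from 0.03 to 0.78.

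The 6 miRNAs of the endothelial list were all tested, 4 were called higher against 4.33% of all tested miRNAs, and their median difference was 0.25 against 0.07 over all tested miRNAs and 0.13 over those never at the floor. This list was drawn up with earlier results of these arrays known, so its count is a description. Summed on the linear scale, the endothelial list stood at 2.69 to 3.64 times the array's 75th percentile in controls. At the low dose it stood at 3.76 to 4.07 times it, with no overlap. The sum mostly follows miR-126-3p, whose mean log2 level in controls was 1.32, against -1.57 for miR-10a, the next brightest. This lack of overlap therefore largely repeats that of miR-126-3p. In whole liver, more cells of a type and more RNA in each cell cannot be told apart.

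The miR-17 clusters, on chromosomes 14, X and 5, carry miRNAs that promote proliferation. Of 13 listed members 9 were tested and 2 were called higher, with 5 higher at an unadjusted p under 0.05 and a median difference of 0.13. Over all tested miRNAs 4.33% were called and 13.5% were higher before adjustment, a split that other scalings changed as given above. miR-20a stood at -0.98, -1.38, -1.40, -1.32 and -1.11 in control replicates 1, 10, 17, 19 and 22, and at -0.76, -0.93, -0.93, -1.08 and -1.06 in low dose replicates 3, 11, 12, 18 and 24. On each slide its low dose arrays were above the mean of the controls there, although replicates 18 and 24 did not exceed control replicate 1. The difference was 0.27 ± 0.07 (SE), 1.21-fold, adjusted p = 0.0380.

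miR-20b, on the X chromosome, stood at -2.39, -2.58, -2.63, -2.60 and -2.35 in control replicates 1, 10, 17, 19 and 22, and at -2.19, -2.21, -2.12, -2.35 and -2.27 in low dose replicates 3, 11, 12, 18 and 24. The groups did not overlap, by a gap of 0.0054 between low dose replicate 18 and control replicate 22. The difference was 0.27 ± 0.06 (SE), 1.21-fold, adjusted p = 0.0259. miR-20a and miR-20b, whose sequences differ at 2 of 23 positions, thus had the same difference to 2 decimals, and the part of cross-reading between their probes was not tested. The relatives miR-93 and miR-106b, with the same seed and 3 or 4 positions different from either, had 0.12 (adjusted p = 0.324) and 0.11 (adjusted p = 0.561).

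Neighbours of miR-20a within its cluster on chromosome 14 were mixed. miR-92a, which is encoded beside both miR-20a and miR-20b, had 0.28 ± 0.07 (SE) with no overlap between the groups and an adjusted p of 0.0517, just short of the threshold. miR-19b, also encoded in both clusters, had 0.18 (adjusted p = 0.308) and miR-19a had 0.13 (adjusted p = 0.572). miR-18a was at the floor on all 10 arrays, and miR-17*, the lesser arm of miR-17, differed by 0.01. On the X chromosome, miR-363-3p beside miR-20b was detected on 0 of the 10 arrays.

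miR-223, which is made in granulocytes and macrophages, was at -1.79, -2.19, -2.00, -2.12 and -2.01 in control replicates 1, 10, 17, 19 and 22. It was at -1.45, -1.86, -1.75, -1.60 and -1.63 in low dose replicates 3, 11, 12, 18 and 24, of which all but replicate 11 exceeded every control. The difference was 0.37 ± 0.09 (SE), 1.29-fold, adjusted p = 0.0382, and it was 0.35, 0.38 and 0.43 on slides 1, 2 and 3. Of 8 listed leukocyte miRNAs 5 were tested and miR-223 was the 1 called, where 4.33% of all tested miRNAs were. miR-146a, induced by inflammatory signals, had 0.28 (adjusted p = 0.309), but its second probe gave 0.02. miR-142-3p and miR-142-5p, made in all blood cell lineages, had 0.19 and 0.26 (adjusted p = 0.670 and 0.476). miR-342-3p had -0.02. The summed leukocyte list was 1.09 to 1.519 in controls and 1.523 to 1.62 at the low dose, so the groups touched without overlapping.

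miR-23b is encoded with miR-27b and miR-24 on chromosome 13, and this cluster limits TGF-beta signalling in the fetal liver. Its level was 0.79, 0.57, 0.42, 0.58 and 0.53 in control replicates 1, 10, 17, 19 and 22, and 0.86, 0.71, 0.84, 0.84 and 0.73 in low dose replicates 3, 11, 12, 18 and 24. Control replicate 1 was again the highest control and exceeded low dose replicates 11 and 24. The difference was 0.20 ± 0.05 (SE), 1.15-fold, adjusted p = 0.0402, was called in 3 of the 19 other settings, and turned to -0.0075 with the median scaling described below. Of the 6 tested miRNAs of the miR-23, miR-27 and miR-24 clusters, 1 was called and 5 were higher at an unadjusted p under 0.05, where 4.33% and 13.5% of all tested miRNAs were. miR-24 had 0.18 and miR-23a 0.27 (adjusted p = 0.0684 for both). miR-27b had 0.17 (adjusted p = 0.214) and miR-27a 0.23 (adjusted p = 0.278), while miR-24-1* was at the floor on all 10 arrays. The sequences of miR-27a and miR-27b differ at 1 of 21 positions, and cross-reading between their probes was not tested.

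Members of the miR-15 seed family did not share 1 value. Of 6 tested, miR-322 was called, where 4.33% of all tested miRNAs were. miR-15b (0.22, adjusted p = 0.10), miR-195 (0.24, adjusted p = 0.561) and miR-497 (0.24, adjusted p = 0.572) had positive differences that did not pass. miR-15a had -0.09 (95% interval -0.23 to 0.05) and miR-16 had -0.01. The capitals in the sequences above show that miR-15a, miR-15b, miR-16 and miR-322 carry the same seed, with 6, 7 and 10 of 22 positions differing between miR-322 and miR-15b, miR-15a and miR-16.

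**Figure D3:**
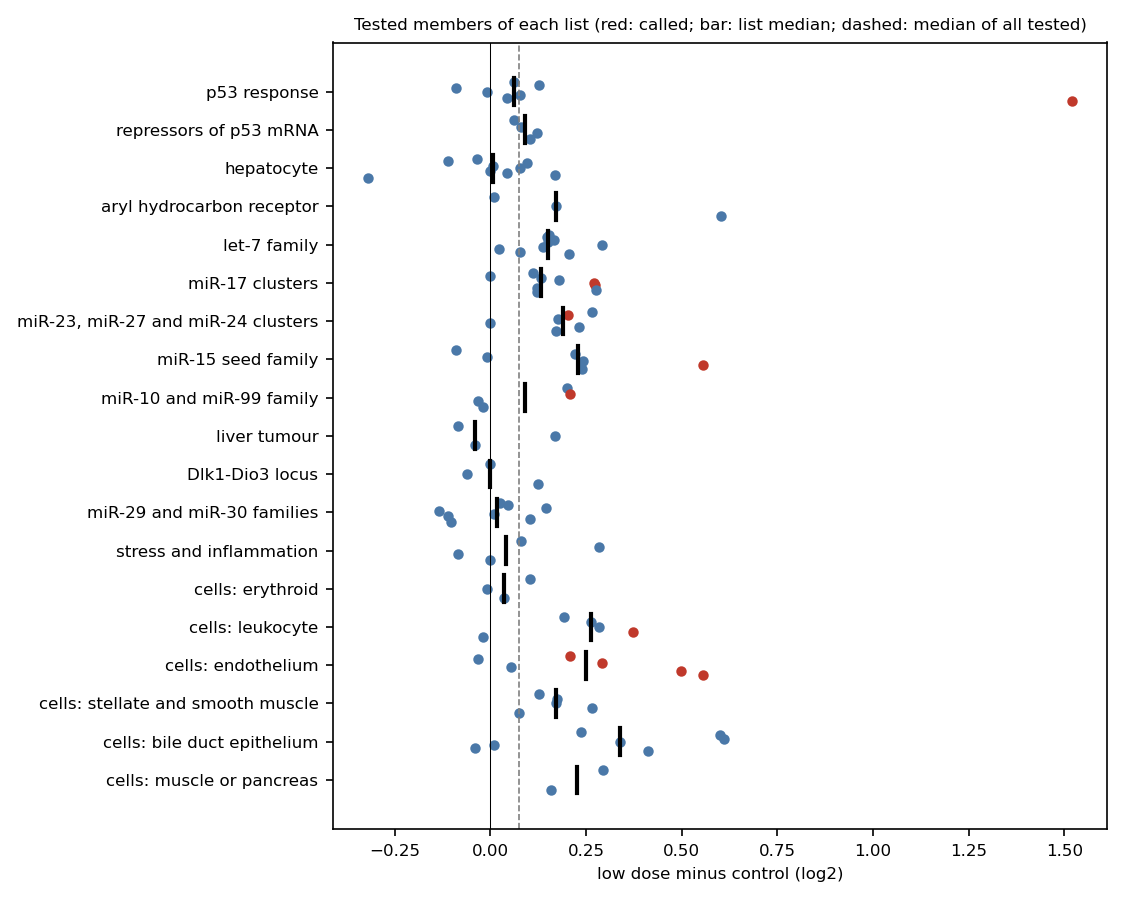
Difference between low dose and control (log2) for each tested member of each of the 19 lists, red where called, with a bar at the median of the list and a dashed line at the median of all tested miRNAs, 0.07. The endothelial list has 4 red points, and miR-34a at 1.52 is the 1 red point of the p53 list.

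Other miRNAs of the p53 response did not pass. Of 13 listed, 7 were tested, 6 were detected on no array of the 10, and miR-34a was the 1 called. Over all tested miRNAs 4.33% were called. The list's median difference was 0.06, close to that of all tested miRNAs. The p53 targets miR-192 and miR-194, both abundant in liver, had 0.08 (adjusted p = 0.856) and 0.04 (adjusted p = 0.998), and miR-107 had 0.06 (adjusted p = 0.838). The 4 tested miRNAs known to repress p53 messenger RNA had 0.06 to 0.12, and 0 were called.

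Of the 9 tested hepatocyte miRNAs 0 were called, with a median difference of 0.01. miR-122, the main miRNA of hepatocytes, had 0.10 with a 95% interval of -0.15 to 0.34 (adjusted p = 0.890). It was detected on all 10 arrays, at 6.41 to 6.82 in controls and 6.51 to 6.83 at the low dose, so the defining miRNA of the labelled tissue was present on each. miR-148a had 0.01, miR-101b -0.11 and miR-365 0.17 (adjusted p = 0.308). The summed hepatocyte list was 103 to 135 in controls and 109 to 134 at the low dose.

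The list for the aryl hydrocarbon receptor had 3 tested members and 0 calls. miR-96 differed by 0.60 with an adjusted p of 0.280. It was at -4.34, -4.25, -4.35, -4.02 and the floor in control replicates 1, 10, 17, 19 and 22. In low dose replicates 3, 11, 12, 18 and 24 it was at -3.31, -3.22, -4.48, -4.20 and -3.38. Replicates 3, 11 and 24 exceeded all controls and the other 2 lay within them. miR-27b had 0.17 and miR-203 had 0.01.

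All 9 miRNAs of the let-7 family, which share the seed GAGGUAG and promote differentiation, had positive differences, between 0.02 and 0.29, and 0 were called. Their median was 0.15, near the 0.13 of the 125 miRNAs never at the floor, of which 104 had positive differences. let-7e had the largest difference, 0.29 (adjusted p = 0.295), with low dose replicate 3 at -1.82 and the other 4 at -2.33 to -2.21, against -2.65 to -2.33 in controls. let-7a, let-7c and let-7f had 0.15, 0.17 and 0.14 (adjusted p = 0.561 each), and let-7g had 0.02. The sequence of let-7a differs from each of let-7c, let-7e and let-7f at 1 of 22 positions. Cross-reading between the probes of this family was not tested.

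The 4 tested members of the miR-10 and miR-99 family had 1 call, miR-10a, against 4.33% called over all tested miRNAs. miR-100 had 0.20 (adjusted p = 0.668) and miR-99a had -0.02. Of the 3 tested liver tumour miRNAs 0 were called. miR-21, which rises in many injured and cancerous tissues, had -0.08 with a 95% interval of -0.42 to 0.25 (adjusted p = 0.998), and miR-221 had 0.17 (adjusted p = 0.561). The Dlk1-Dio3 imprinted locus had 31 listed miRNAs, of which 28 were detected on no array of the 10 and 3 were tested near the floor, with 0 calls. The miR-29 and miR-30 families, which hold down collagen genes and guide hepatobiliary development, had 8 tested members, 0 calls and a median of 0.02. In the stress and inflammation list 4 were tested, 0 were called, and the hypoxia miRNA miR-210 was at the floor on all 10 arrays.

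No miRNA was called lower. Those with a lower value and the smallest p were miR-30a with -0.13, miR-2146_v15.0 with -0.21, miR-378* with -0.10, miR-15a with -0.09 and miR-455 with -0.32, and their adjusted p ran from 0.600 to 0.708. The miR-30 family was mixed, with miR-30c at -0.11, miR-30e at -0.10, miR-30b at 0.01 and miR-30d at 0.10. At an unadjusted p under 0.05, 0 of the 208 were lower in limma.

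Beyond the tested miRNAs, 456 of the 696 were detected on 0 of the 10 arrays. There were 0 miRNAs detected on at least 4 arrays of 1 group and at most 1 of the other. Chosen after their values were seen, miR-186, miR-1948, miR-455* and miR-468 were detected on 2 control arrays and 0 low dose arrays, and miR-1897-5p on 3 and 0. The reverse, at least 2 low dose arrays and 0 controls, occurred for 0 miRNAs.

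Epithelial markers set 1 array apart. The bile duct list was 0.385 to 0.537 in controls and 0.431 to 0.502 in low dose replicates 11, 12, 18 and 24, but 1.57 in low dose replicate 3. miR-200a and miR-200b, which maintain epithelial identity, were at -0.90 and -0.97 in that array, against -4.13 to -3.02 and -4.38 to -2.93 over the other 9. miR-429, miR-200c and miR-141 were at -2.70, -3.03 and -3.61 there and at the floor on the other 9. Low dose replicate 3 was thus the array with the highest miR-34a and the highest epithelial miRNAs, while miR-31 and miR-203 of the same list differed by -0.04 and 0.01 between the groups. The part of the epithelial miRNAs in the miR-34a value of that array was not tested, and the difference without it is given above.

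Muscle miRNAs marked 2 other arrays. The summed muscle or pancreas list was 2.91 in control replicate 22 and 4.14 in low dose replicate 11, against 0.0722 to 0.0895 on the other 8, and miR-1 alone was at 1.19 and 1.71 in those 2. Leaving out control replicate 22 gave 7 calls and leaving out low dose replicate 11 gave 9. Erythroid markers overlapped, at 8.47 to 11.4 in controls and 7.30 to 11.5 at the low dose, with miR-451 at 0.04. The stellate and smooth muscle list was 0.460 to 0.715 in controls and 0.572 to 0.699 at the low dose. Of its 5 tested members 0 were called, and all had positive differences of 0.07 to 0.27. The second probe of miR-199b*, the member with 0.27, gave -0.02.

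**Figure D4:**
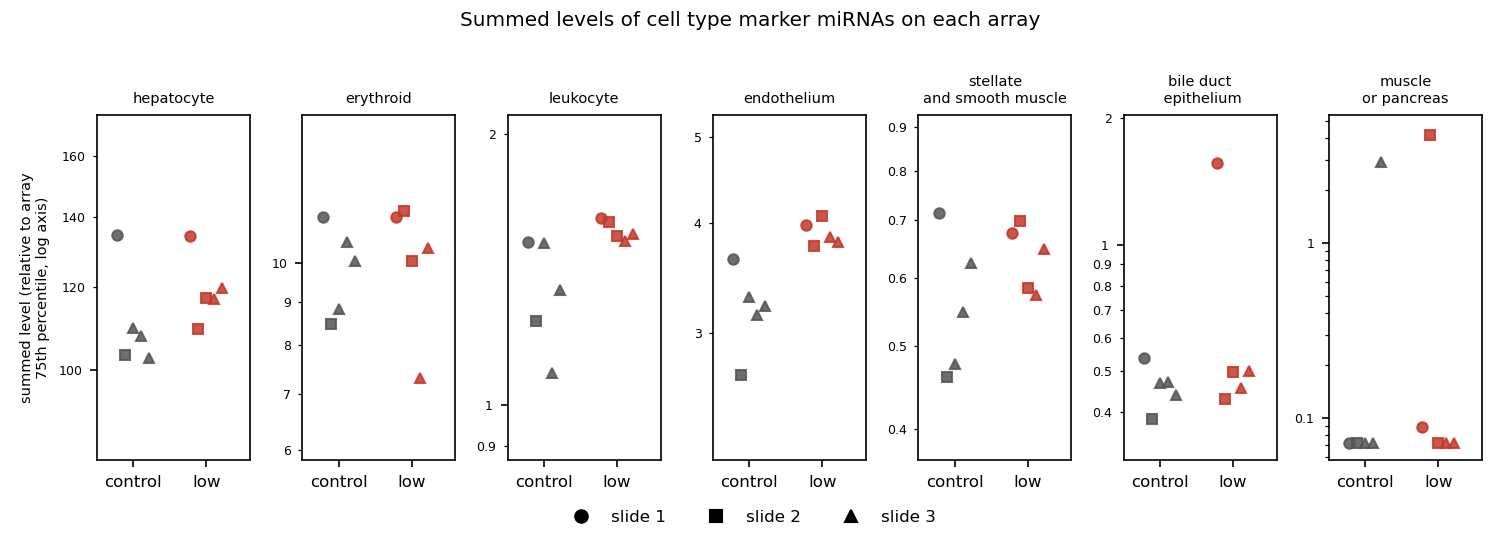
Summed level of each list of cell type marker miRNAs on each of the 10 arrays (in units of the array's 75th percentile, log axis), controls in grey and low dose in red, the shape of the point giving the slide. The endothelial sums, which mostly follow miR-126-3p, do not overlap. Low dose replicate 3 stands out at 1.57 in the bile duct list. Control replicate 22 and low dose replicate 11 stand out at 2.91 and 4.14 in the muscle list.

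Array scaling moved the whole distribution. Most calls were lost under several scalings, and also under settings that keep the scaling, such as no filter or only part of the slides. On each of the 3 slides all 9 called miRNAs were higher at the low dose. They were chosen by a fit to these same arrays, so this is no separate support, and slide 1 holds 1 array of each group. The median difference of the miRNAs never at the floor was -0.06 on slide 1, 0.20 on slide 2 and 0.16 on slide 3, with 50, 108 and 100 of the 125 higher. Scaling by the median of the miRNAs detected on all arrays took the median over all tested miRNAs from 0.07 to -0.07, no scaling took it to -0.04 and normexp background correction to 0.29. miR-10a and miR-23b turned to -0.00065 and -0.0075 under the first of these, and the other 7 called miRNAs kept positive differences there. All 9 stayed above the median of all tested miRNAs in every setting except normexp, where 4 did. Leaving out control replicate 10 left 0 calls, with 21 miRNAs higher and 1 lower at an unadjusted p under 0.05.

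**Figure D5:**
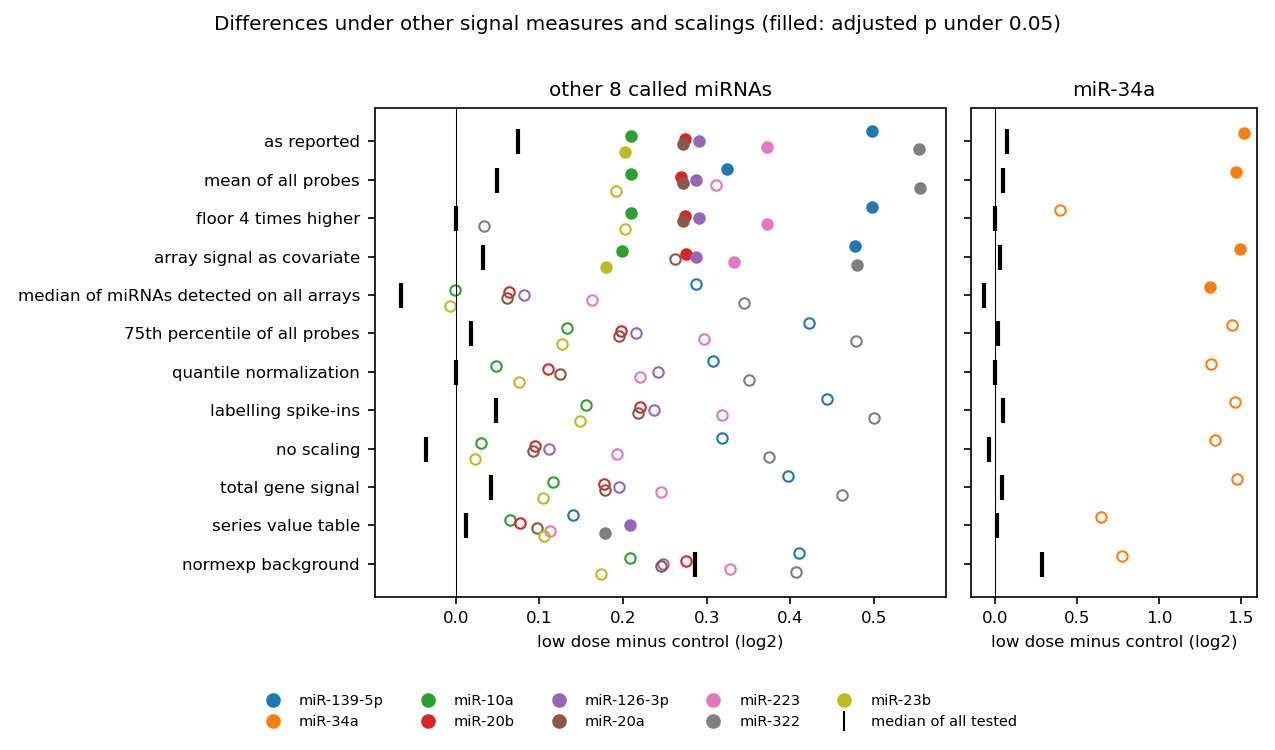
Difference between low dose and control (log2) of the called miRNAs as reported and under other ways of measuring and scaling the signal, filled where the adjusted p is under 0.05, with a vertical bar at the median of all tested miRNAs. Differences of the 8 miRNAs other than miR-34a shrink toward 0 with no scaling and with the median scaling, while miR-34a stays between 0.40 and 1.52.

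The higher doses placed the low dose values of miR-34a below theirs. The mean level of miR-34a was -2.50 ± 1.00 over the 5 low dose arrays, -0.60 ± 0.71 over the 4 middle dose arrays and -0.31 ± 0.53 over the 5 high dose arrays (SD). The low dose minus the mean of the other 2 doses, which uses no controls, was -1.78 ± 0.26 (SE; 95% interval -2.34 to -1.21; adjusted p = 0.00223). Low dose replicate 3, at -0.71, lay within 1 SD of the mean of the middle dose. miR-34a was the 1 miRNA of 208 (0.481%) that was lower in this comparison, and 0 were higher, where 17 were higher and 19 lower at an unadjusted p under 0.05 in limma. Array rows were uneven, with 4 of the 5 low dose arrays in row 1 of their slides and 3 of the 4 middle dose and all 5 high dose arrays in row 2, while controls and low dose arrays were placed alike. With the row as a further block the miR-34a difference was -1.64 and was not called (adjusted p = 0.0743, within 0.00072 to 0.0764 over the other settings). With the 75th percentile of all probes 33 miRNAs were higher and 1 lower.

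For the other called miRNAs the low dose was not separable from the higher doses, which does not show that they were equal. miR-139-5p differed by 0.00 with an interval of -0.17 to 0.17, and against the shared controls it had 0.50, 0.51 and 0.47 with increasing dose. In the same order miR-223 had 0.37, 0.48 and 0.39, and miR-23b had 0.20, 0.26 and 0.22, and both were called at each dose. miR-10a had 0.21, 0.11 and 0.13, miR-20b 0.27, 0.12 and 0.14, miR-126-3p 0.29, 0.16 and 0.08, and miR-20a 0.27, 0.17 and 0.17. These 4 were called at the low dose and at neither of the others, and their differences between the low and the higher doses, 0.09 to 0.17, had adjusted p of 0.239 to 0.438. miR-322, with 0.55, 0.41 and 0.45, was likewise called at the low dose only. The middle dose had 12 calls (5.77%) and the high dose 5 (2.4%), and all of these comparisons share the same 5 controls.

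The difference had no strong linear correlation with the base composition or the level of a miRNA. Over the tested miRNAs with a RefSeq sequence, the GC content correlated with the difference at r = -0.06. The level correlated with it at r = -0.01, across miRNAs that share libraries and scaling. Some of these were at the floor, which removes or shrinks their difference. The r with level therefore cannot show that level played no part. Of the 125 miRNAs never at the floor 104 were higher, against 136 of all 208 tested. Chosen after the values were seen, 3 of the 9 tested miRNAs with 1 location on the X chromosome were called, with a median of 0.20. Of 103 located elsewhere 4 were called, with a median of 0.07. These counts hold 7 of the 9 called miRNAs. miR-126-3p and miR-23b have no matched sequence and are left out, and miR-23b lies on chromosome 13, not on the X.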

How the data were processed

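The deposited scanner files hold an intensity for every spot, background-subtracted by Agilent's Feature Extraction software (version 10.7.3.1, per the file headers) and not scaled between arrays. The authors deposited a value table on the log2 scale, used as an alternative. How it was made is not given in the sources used. It held 692 miRNAs, 636 of them matched by name and 187 of them tested, its column medians were 5.04 to 5.05, and whether it was centred is unknown.

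Without control spots 13920 of 14635 spots remained on an array, and outlier-marked spots were left out. Spots were averaged for each of 1937 probes, signals were scaled to the 75th percentile of 220 probes well above background on all arrays, the floor was applied and log2 taken. The brightest of a miRNA's 1 to 4 probes stood for it. There were 0 saturated spots. A limma model (version 3.58.1, R 4.3.3, moderated with eBayes) was fitted to all 19 arrays with the slide as a fixed block. Tests were two-sided, with Benjamini-Hochberg adjustment over all 208 miRNAs and a threshold of 0.05. Exact permutation tests listed every arrangement of the arrays in Python 3.11.15. The fit was tested on simulated data. For normexp (offset 50) the median signal was used, since the files have no mean signal.

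The rule for naming took the called miRNAs, the next by p up to 20, and the 5 lower ones with the smallest p. It also took up to 4 brightest members of each list, and in every case miR-122, miR-21 and miR-34a. List members beyond these were added for completeness. Not described above among the 20 are miR-652 (0.27, adjusted p = 0.0684 in limma), miR-425 (0.16, 0.0732) and miR-1944 (0.47, 0.132). The same holds for miR-335-5p (0.15, adjusted p = 0.152) and miR-29c (0.15, adjusted p = 0.215). Some of the brightest list members, such as miR-29a (0.02), miR-29b (0.05) and miR-199a-3p (0.17), were also left out. The comparison, the 19 lists and this rule were chosen with earlier results of these data known. Arrays are 1 per mouse per the labels, and their number limits the precision.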

Additional observations from a re-analysis of the deposited data

Results flagged for a closer look

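Of 64 sets of 5 arrays examined, 7 held an array whose gap to its nearest neighbour took up more of the range than Dixon's critical value of 0.710, where chance alone marks about 1 set in 20. For miR-34a, low dose replicate 3 at -0.71 lay above the next array at -2.86, a share of 0.923. let-7e in the same array was at -1.82 against -2.21, a share of 0.764. miR-30a in low dose replicate 24 was at 0.92 against 1.07, the lowest of its group, a share of 0.836.

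In control replicate 1, miR-122 was at 6.82 against 6.52, a share of 0.735. The same array detected 181 miRNAs against 204 for the next lowest control, a share of 0.821, and its hybridization spike-in signal was 12.86 against 13.44 on the log2 scale, a share of 0.842. Its slide partner, low dose replicate 3, had 174 miRNAs detected and 12.94 for that spike-in. For miR-335-5p, control replicate 17 was at -4.78 with the other 4 controls at the floor, a share of 1.00 that reflects the floor alone. miR-34a also differed between the low dose and the mean of the middle and high doses, by -1.78.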

How the results depend on the processing

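The 9 calls against control became 0 with the 75th percentile of all probes (7 miRNAs at an unadjusted p under 0.05 in limma), quantile normalization (17), no scaling (4), labelling spike-ins (3), normexp (4), total gene signal (18), no filter (28), slide 3 alone (27) and slides 1 and 2 alone (14). They became 2 in the deposited value table, 3 without the slide block, and 1 with the median of the miRNAs detected on all arrays, a scaling added after seeing the data, as was the array signal as a covariate. In the other 7 settings there were 6 to 10. With 1 array left out the calls ran from 0 (control replicate 10) to 13 (control replicate 1). Omitting any of low dose replicates 3, 12 and 24 or control replicate 19 left 2, omitting low dose replicate 18 left 3 and omitting control replicate 17 left 4. Without the filter 696 miRNAs were tested. The cause was not tested for the others.

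Against the higher doses the 1 call became 34 (33 higher) with the 75th percentile of all probes, 6 (5 higher) with quantile normalization, 7 (6 higher) with total gene signal, 13 (0 higher) with labelling spike-ins, and 0 with no scaling (88 at an unadjusted p under 0.05 in limma) and with slide and row as blocks (15). It stayed 1 with any array left out. The plain miR-34a difference was 0.42 with the floor 4 times higher (exact permutation p = 1.00), by construction of that floor. The labelling spike-in difference was -0.13 within slides (exact permutation p = 0.0333, adjusted over the 4 measures 0.133), and with 1 array left out it ran from -0.22 (control replicate 1) to -0.062. Under the added median scaling miR-10a was -0.00065 and miR-23b -0.0075. No paired analysis was possible because the groups share no replicate numbers. Over the scalings the median of all tested miRNAs ran from -0.07 to 0.29, which limits what differences of that size can show.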
